A study of Mus musculus with 9 samples.

Results

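The genes described here build the lysosome and acidify it. They are the 23 genes whose symbols start with Atp6v0 or Atp6v1, which encode subunits of the vacuolar ATPase, and 23 listed lysosome genes, 46 of the 23285 genes in the deposited table. By role they comprise 10 V0 genes, 13 V1 genes, 5 membrane proteins, 7 cathepsins, 9 other hydrolases or luminal cofactors and 2 transcription factors. No measured value entered the choice by symbol, but the list was drawn up with earlier results of these data known.

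The lysosome is the acidic compartment in which cells digest proteins, lipids and glycans taken up from outside or delivered by autophagy. The vacuolar ATPase pumps protons into it: a V1 head in the cytosol hydrolyses ATP and turns a rotor of V0 subunits that sits in the membrane. The factors TFEB and TFE3 switch on many genes of the lysosome through the E-box core CACGTG. Maturing red cells use lysosomes to clear mitochondria and other organelles, and they carry iron from transferrin through acidic endosomes. The macrophages that nurse erythroblasts in bone marrow, and granulocytes, are rich in lysosomal enzymes of their own.

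RNA was sequenced from immature erythroid cells sorted from bone marrow of C57BL/6 mice, 9 libraries in all and 3 in each group. KOb cells were TRIM28(flox/flox):Mx1Cre cells sorted as CD71(hi)TER119-, in which the labels put the undeleted Trim28 gene at 1-4% and its residual mRNA at 18%. KOa cells were TRIM28(flox/flox):Mx1Cre cells sorted as CD71(hi)TER119+, with 5-8% of the gene undeleted and 26% of the mRNA left. FFa cells, the control, carried the TRIM28(flox/flox) alleles without the Cre transgene and were sorted as CD71(hi)TER119+. Mx1Cre is driven by an interferon-responsive promoter that is active in many cell types of the marrow, macrophages and other blood cells among them. Mutant mice received 5 injections of poly(I:C) and were studied 2 weeks after the last one. The sources used here do not give the ages of the mice, whether FFa mice were injected, or whether each library came from an animal of its own, so p-values may measure partly technical spread. KOb differs from the other groups in both deletion and sort gate, and both mutant groups differ from FFa in both Cre and deletion, so these cannot be told apart. CD71 is the transferrin receptor, and TER119 is a surface antigen that erythroid cells gain as they mature.

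Each level below is the authors' FPKM (fragments per kilobase of transcript, scaled to the number of mapped fragments), 1 value per gene and group, so no SD or n per value could be given. Each log2 ratio, q and test is from the authors' deposited table. The value after ± is the standard error (SE) implied by the authors' statistic, and a gene is called where its test was completed and q, the Benjamini-Hochberg adjusted p over all genes and comparisons, was below 0.05. Trim28 stood at 4.76 FPKM in KOb, 6.64 in KOa and 26.0 in FFa, and in the authors' deposited table it was lower in KOa (log2 ratio -1.97 ± 0.30) and KOb (-2.45 ± 0.30) than in FFa, both with q = 0.000619, the smallest q in that table. All 10 listed erythroid markers were detected in every group. The 10 genes of highest FPKM, led by the beta-globin entry Beta-s, held 65.0% of the summed FPKM in KOb, 81.1% in KOa and 75.6% in FFa. Depth per library is unknown. As these are sorted populations measured in bulk, fewer cells of a type and less RNA per cell cannot be told apart.

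Promoters came from RefSeq (GRCm38.p6, the assembly that mm10 names), from 250 bases before to 50 bases after each start. At least 1 promoter was present for 35 of the 46 genes, and 11 of these 35 (31.4%) held CACGTG, which reads the same on both strands. The same letters were in 8.09% of the 27025 genes with a promoter and in 12.1% of the 7822 such genes tested for expression. Of the 46 genes, 29 had a promoter and were tested, and 11 of these 29 (37.9%) held CACGTG. The longer TCACGTG, searched on both strands and overlapping the core, was in 10 of the 35 genes (28.6%). It was in 10 of the 29 tested genes (34.5%), in 4.29% of the 27025 genes with a promoter and in 7.15% of the 7822 such genes tested for expression. The 250 bases before the start follow for 4 genes that hold the core and that differ in their expression results, with CACGTG in capitals. They lie at chr8:13158911-13159160 (plus strand, Lamp1), chr4:117887330-117887579 (minus strand, Atp6v0b), chr11:119267713-119267962 (plus strand, Gaa) and chr8:3500269-3500518 (plus strand, Mcoln1).
Lamp1 promoter: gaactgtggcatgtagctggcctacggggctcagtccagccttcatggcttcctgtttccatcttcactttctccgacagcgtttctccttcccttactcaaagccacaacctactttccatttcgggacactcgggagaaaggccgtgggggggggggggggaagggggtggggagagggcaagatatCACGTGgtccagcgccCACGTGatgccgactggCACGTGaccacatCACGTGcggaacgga
Atp6v0b promoter: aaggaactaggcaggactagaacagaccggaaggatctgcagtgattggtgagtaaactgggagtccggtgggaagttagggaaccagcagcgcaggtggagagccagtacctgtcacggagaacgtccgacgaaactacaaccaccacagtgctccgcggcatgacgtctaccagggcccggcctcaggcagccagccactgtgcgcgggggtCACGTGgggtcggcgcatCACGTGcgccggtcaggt
Gaa promoter: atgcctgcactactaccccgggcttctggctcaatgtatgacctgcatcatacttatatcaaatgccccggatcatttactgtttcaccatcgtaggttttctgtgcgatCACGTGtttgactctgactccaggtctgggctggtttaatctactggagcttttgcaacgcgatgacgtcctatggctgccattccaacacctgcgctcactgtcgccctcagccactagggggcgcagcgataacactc
Mcoln1 promoter: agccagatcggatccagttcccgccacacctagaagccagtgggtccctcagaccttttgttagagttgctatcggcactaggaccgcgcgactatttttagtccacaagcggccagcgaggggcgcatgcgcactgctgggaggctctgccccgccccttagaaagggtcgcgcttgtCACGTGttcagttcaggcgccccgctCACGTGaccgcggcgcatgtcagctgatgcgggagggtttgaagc
Lamp1 carried the core 4 times, with its first base 61, 45, 28 and 15 bases before the start. Atp6v0b carried it 36 and 18 bases before the start, Mcoln1 71 and 45 bases before it, and Gaa 140 bases before it. Lamp1 was, in the authors' deposited table, called higher in KOa than in FFa, Atp6v0b lower in KOa than in FFa, Gaa higher in KOb than in FFa, and Mcoln1 was called in no comparison. Over the 29 tested genes with a promoter, the core was in 1 of 5 genes called higher, 2 of 7 called lower and 8 of 17 not called in KOa against FFa. For KOb against FFa the core was in 3 of 4 called higher, 2 of 5 called lower and 6 of 20 not called. A match is a string of letters and not a bound site.

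Of the 46 genes, 38 were tested in each comparison, and 20 of them were called in at least 1 comparison. The other 8 were vacuolar ATPase genes with at most 0.184 FPKM in any group: Atp6v0a4, Atp6v0c-ps2, Atp6v0d2, Atp6v0e2, Atp6v1b1, Atp6v1c2, Atp6v1e2 and Atp6v1g3. An FPKM of at least 1 was reached by 35 genes in KOb, 32 in KOa and 34 in FFa. In KOa against FFa, 6 genes were called higher and 10 lower of the 38 tested (42.1%), beside 22.1% of all tested genes (7.99% higher and 14.1% lower). In KOb against FFa, 4 were called higher and 7 lower (28.9%), beside 28.0% of all tested genes (12.8% higher and 15.2% lower), a share near the background. In KOb against KOa, 5 were called higher and 5 lower (26.3%), beside 16.2% of all tested genes (10% higher and 6.19% lower). Among genes with at least 1 FPKM in the higher group the shares were 47.1% of 34 genes beside 25.5% of all such genes in KOa against FFa, 30.6% of 36 beside 31.4% in KOb against FFa, and 28.6% of 35 beside 19.5% in KOb against KOa.

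The genes did not move as a block. Over those with at least 1 FPKM in either group, the middle log2 ratio (median) was -0.13 for KOa over FFa (34 genes), 0.10 for KOb over FFa (36 genes) and 0.07 for KOb over KOa (35 genes). Over all tested genes above the same level these medians were -0.07, 0.01 and 0.06. The comparisons share groups, so their results are not independent. Of the 37 calls made on these genes, 26 had a 95% interval (from the implied SE) that excluded 0, and 9 kept an adjusted p below 0.05 when the authors' statistic was read as a standard normal score: Atp6v0c in KOa against FFa and in KOb against KOa, Ctsh and Psap in both KOa and KOb against FFa, and Ctsb, Ctsc and Gusb in KOb against FFa.

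How far the genes stood from the background depended on the call rule. Under the normal reading 7.89% of the 38 genes were called beside 7.47% of all tested genes in KOa against FFa, 13.2% beside 9.54% in KOb against FFa, and 2.63% beside 2.69% in KOb against KOa. With a q below 0.01 the shares were 21.1% beside 14.1%, 23.7% beside 18.2% and 15.8% beside 8.44% in the same order of comparisons. With at least 5 FPKM in the higher group they were 54.2% of 24 genes beside 26.9%, 29.2% of 24 beside 34.4% and 27.3% of 22 beside 23.5%. With p adjusted within each comparison they were 42.1% beside 22.1%, 28.9% beside 29.9% and 23.7% beside 14.2%.

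**Figure D1:**
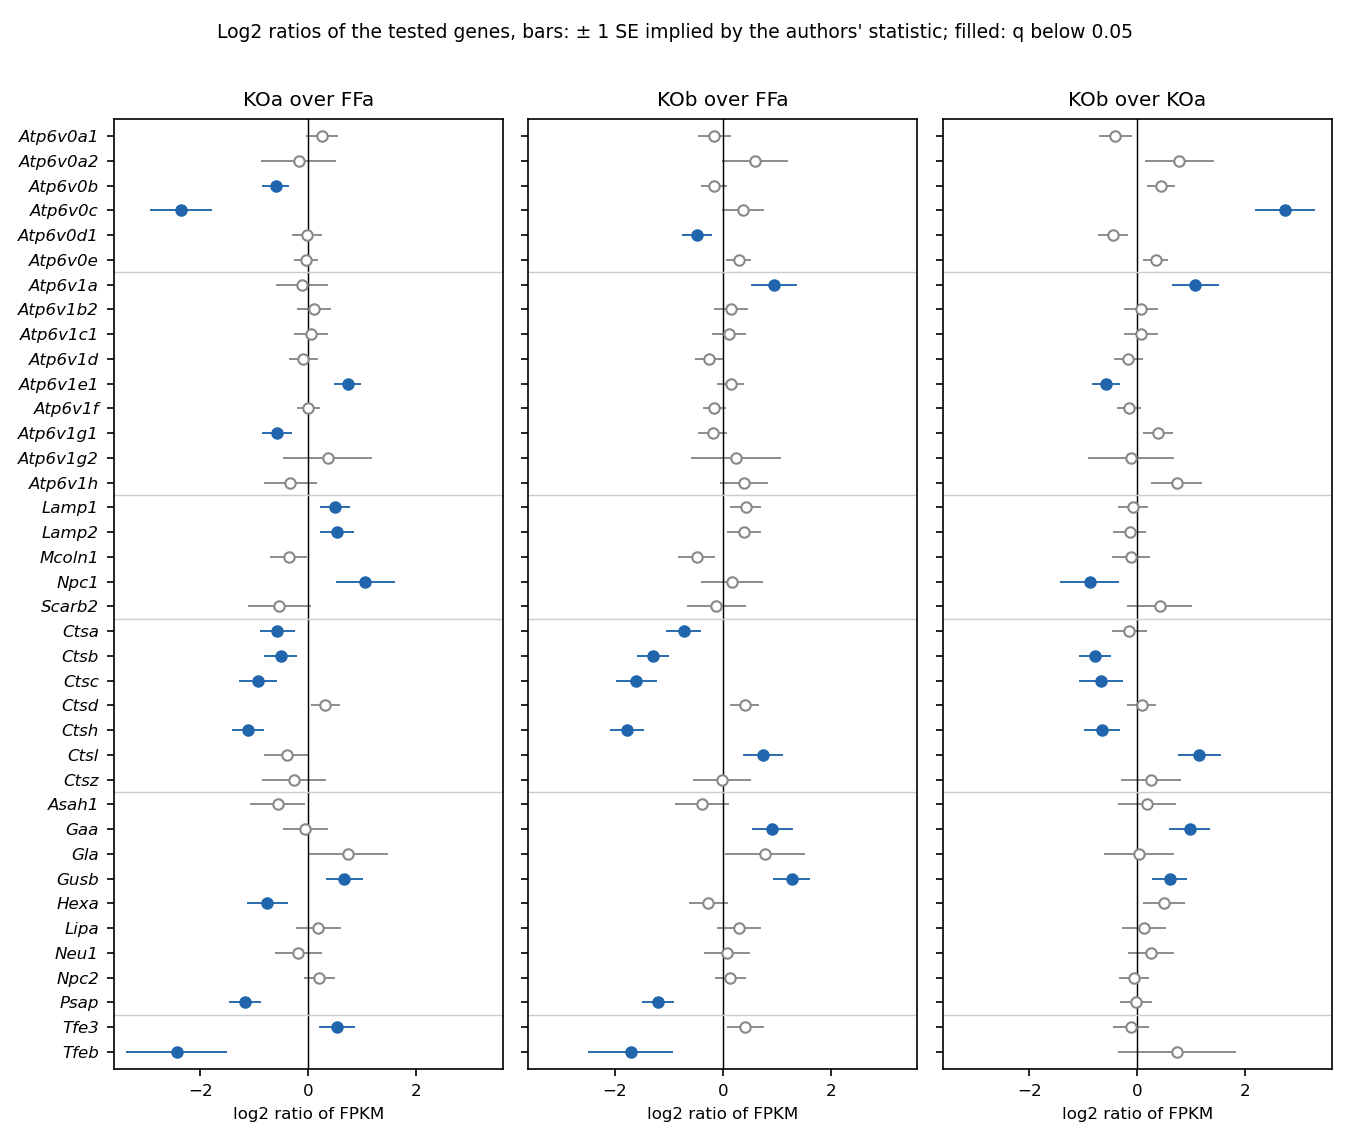
Log2 ratios of FPKM for the 38 tested genes in KOa over FFa, KOb over FFa and KOb over KOa, with bars of 1 implied SE and filled points for q below 0.05. From top to bottom the blocks are V0 subunits, V1 subunits, membrane proteins, cathepsins, other hydrolases and cofactors, and transcription factors. Atp6v0c lies far left in KOa over FFa (-2.36) and far right in KOb over KOa (2.74). Ctsb, Ctsc and Ctsh lie left of 0 with filled points in all 3 panels. Ctsa, Psap, Mcoln1, Atp6v0d1, Atp6v1d and Atp6v1f lie left of 0 in all 3 panels too, with open points in KOb over KOa.

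RNA for each vacuolar ATPase subunit came mainly from 1 gene in all 3 groups. Where a subunit has alternative genes, the leading one held at least 93.8% of the subunit's summed FPKM in every group. For the a subunit, which anchors the pump in a given membrane, Atp6v0a1 held 93.8% in KOb, 97.2% in KOa and 96.2% in FFa. With Tcirg1, the a subunit gene of osteoclasts and immune cells that the symbol rule leaves out, Atp6v0a1 held 85.4% in KOb, 91.5% in KOa and 81.7% in FFa, and Tcirg1 held 9.04%, 5.88% and 15.1% in the same order. Summed FPKM of the V0 genes was 176.6 in KOb, 149.6 in KOa and 171.6 in FFa. Summed FPKM of the V1 genes was 232.8 in KOb, 283.9 in KOa and 235.8 in FFa.

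Subunits that meet in 1 complex differed widely in RNA level per length. Among 13 leading subunit genes the lowest in every group was Atp6v1a, the catalytic A subunit, and the highest was Atp6v1e1, a peripheral stalk subunit. The FPKM of Atp6v1e1 was 56.2 times that of Atp6v1a in KOb, 176.5 times in KOa and 98.1 times in FFa. The deposited locus of Atp6v0a2 starts 83156 bases inside the RefSeq gene, so its FPKM covers only the end of that gene.

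**Figure D2:**
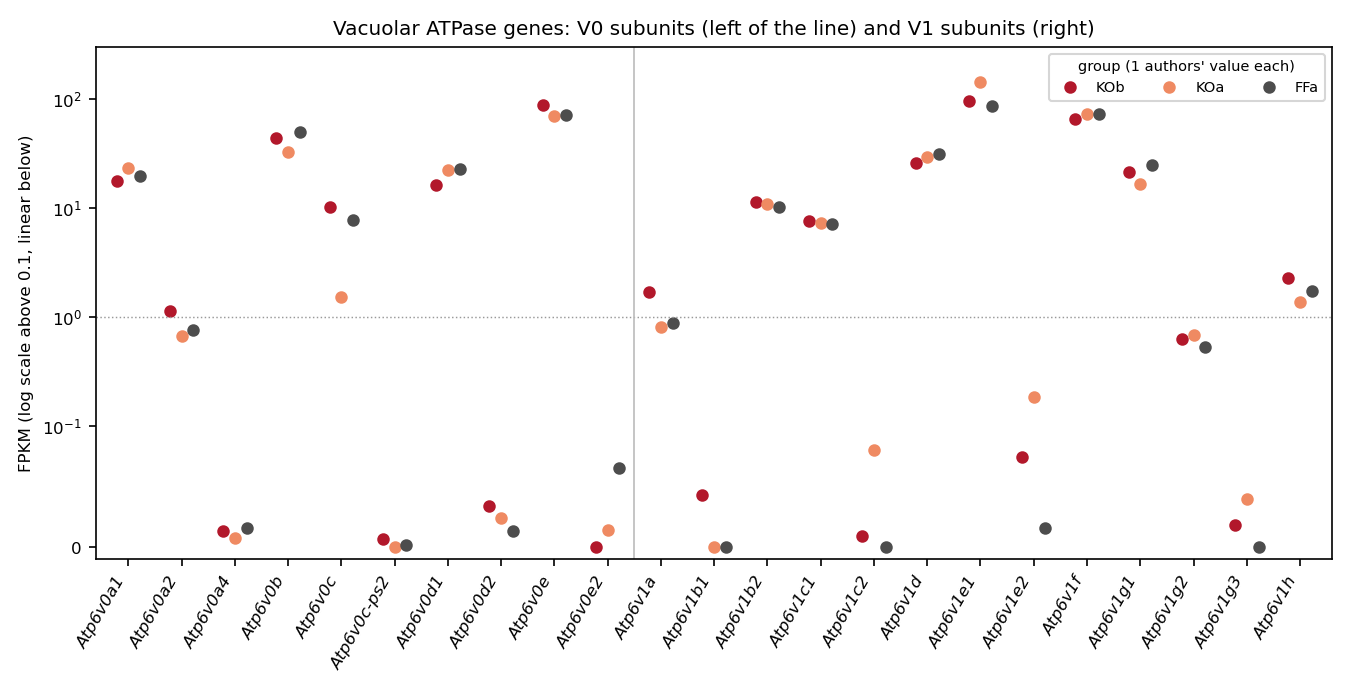
FPKM of the 23 vacuolar ATPase genes in KOb, KOa and FFa, 1 authors' value per gene and group, on an axis that is logarithmic above 0.1 and linear below; the dotted line marks 1 FPKM. The 8 untested genes lie near 0, Atp6v0c stands apart in KOa (1.52 against 10.1 in KOb and 7.80 in FFa), and Atp6v1e1 is highest in KOa (144).

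In the V0 rotor and its membrane partners, Atp6v0c had the largest difference of the 6 genes tested. Atp6v0c encodes the proteolipid that forms the proton-carrying ring (chr17:24163865-24169429, mm10), and it stood at 10.1 FPKM in KOb, 1.52 in KOa and 7.80 in FFa. KOa alone was low, and KOb and FFa were close to each other. The log2 ratio of Atp6v0c in the authors' deposited table was -2.36 ± 0.57 in KOa against FFa and 2.74 ± 0.55 in KOb against KOa, both with q = 0.000619, and 0.37 ± 0.39 in KOb against FFa (q = 0.231). The deposited table gives the same locus to the pseudogene Atp6v0c-ps2, which RefSeq places at chr6:37805975-37807107, so how reads were divided between the copies is not known and the level of Atp6v0c is uncertain. The Atp6v0c-ps2 entry itself held almost none of the signal, at 0.0063 FPKM in KOb, 1.6e-05 in KOa and 0.0021 in FFa.

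The second ring gene, Atp6v0b (chr4:117884330-117887329), stood at 44.2 FPKM in KOb, 32.7 in KOa and 49.7 in FFa. It was lowest in KOa too, at -0.60 ± 0.25 against FFa (q = 0.00714) in the authors' deposited table, a smaller difference than for Atp6v0c, and it was not called in KOb against FFa (-0.17 ± 0.24). Atp6v0d1 (chr8:105524470-105566040), which joins the ring to the stalk, stood at 16.2 FPKM in KOb, 22.2 in KOa and 22.6 in FFa. It was lowest in KOb and was called against FFa at -0.48 ± 0.28 (q = 0.0364) in the authors' deposited table, with a 95% interval from -1.02 to 0.06. Atp6v0a1, at 17.6 FPKM in KOb, 23.4 in KOa and 19.6 in FFa, and Atp6v0e, at 87.2, 69.1 and 71.2 in the same order, were called in no comparison.

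In the V1 head, the called genes were Atp6v1a, Atp6v1e1 and Atp6v1g1. Atp6v1a (chr16:44085404-44139019), the subunit that hydrolyses ATP, stood at 1.71 FPKM in KOb, 0.816 in KOa and 0.886 in FFa. KOb was high, at 0.95 ± 0.43 against FFa (q = 0.00365) and 1.07 ± 0.44 against KOa (q = 0.00205) in the authors' deposited table. Atp6v1e1 (chr6:120795244-120822685) stood at 96.2 FPKM in KOb, 144 in KOa and 86.9 in FFa. KOa was high, at 0.73 ± 0.25 against FFa (q = 0.000619), and KOb was lower than KOa at -0.58 ± 0.25 (q = 0.00548) in the authors' deposited table. Atp6v1g1 (chr4:63544765-63550701), the partner of Atp6v1e1 in the peripheral stalk, moved the other way in KOa, with 21.6 FPKM in KOb, 16.6 in KOa and 24.7 in FFa and a log2 ratio of -0.57 ± 0.28 in KOa against FFa (q = 0.0195) in the authors' deposited table.

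The other tested V1 genes were not called in any comparison. Atp6v1f and Atp6v1d, of the central stalk, stood at 65.1 and 26.1 FPKM in KOb, 72.6 and 29.3 in KOa, and 72.7 and 31.1 in FFa. Atp6v1b2, the partner of the A subunit in the head, had 11.4 FPKM in KOb, 10.9 in KOa and 10.2 in FFa, but shares its deposited locus with Slc18a1. Atp6v1c1 had 7.67 FPKM in KOb, 7.29 in KOa and 7.06 in FFa, Atp6v1h had 2.25, 1.36 and 1.72, and Atp6v1g2 had 0.626, 0.681 and 0.530 in the same order of groups. Counted together, 1 vacuolar ATPase gene was called higher and 3 lower of 15 tested in KOa against FFa, 1 higher and 1 lower in KOb against FFa, and 2 higher and 1 lower in KOb against KOa. These counts are 26.7%, 13.3% and 20% of the 15 genes, beside 22.1%, 28.0% and 16.2% of all tested genes, so the first and the last are near the background and the second is below it. Their median log2 ratios were -0.03, 0.13 and 0.20 in those comparisons.

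Among the membrane proteins, 3 of 5 were called higher in KOa than in FFa and none lower, beside 7.99% higher and 14.1% lower among all tested genes, and the 95% interval of each of the 3 included 0. Lamp1 (chr8:13159135-13175338) and Lamp2 (chrX:38405064-38456455), the glycoproteins that line the inner face of the lysosome, stood at 19.5 and 35.2 FPKM in KOb, 20.6 and 38.9 in KOa, and 14.6 and 27.0 in FFa. Both mutant groups were above FFa for both genes. The log2 ratios of KOa over FFa in the authors' deposited table were 0.50 ± 0.28 for Lamp1 (q = 0.0288) and 0.53 ± 0.31 for Lamp2 (q = 0.0204), with 95% intervals that reach -0.05 and -0.08. In KOb against FFa they were 0.42 ± 0.28 and 0.39 ± 0.32, not called (q = 0.0688 and 0.113).

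Npc1, which exports cholesterol from the lysosome (chr18:12168730-12236386, a locus shared in the table with 3110002H16Rik), stood at 4.03 FPKM in KOb, 7.44 in KOa and 3.58 in FFa. KOa was the high group, at 1.05 ± 0.54 against FFa (q = 0.00807) in the authors' deposited table, and KOb was lower than KOa at -0.89 ± 0.54 (q = 0.0298), with 95% intervals that include 0 in both cases (-0.01 to 2.12 and -1.94 to 0.17). Mcoln1, a cation channel of the lysosome, had 3.70 FPKM in KOb, 4.02 in KOa and 5.17 in FFa, and Scarb2, the receptor that carries glucocerebrosidase to lysosomes, had 1.02, 0.767 and 1.11 in the same order. Neither was called.

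**Figure D3:**
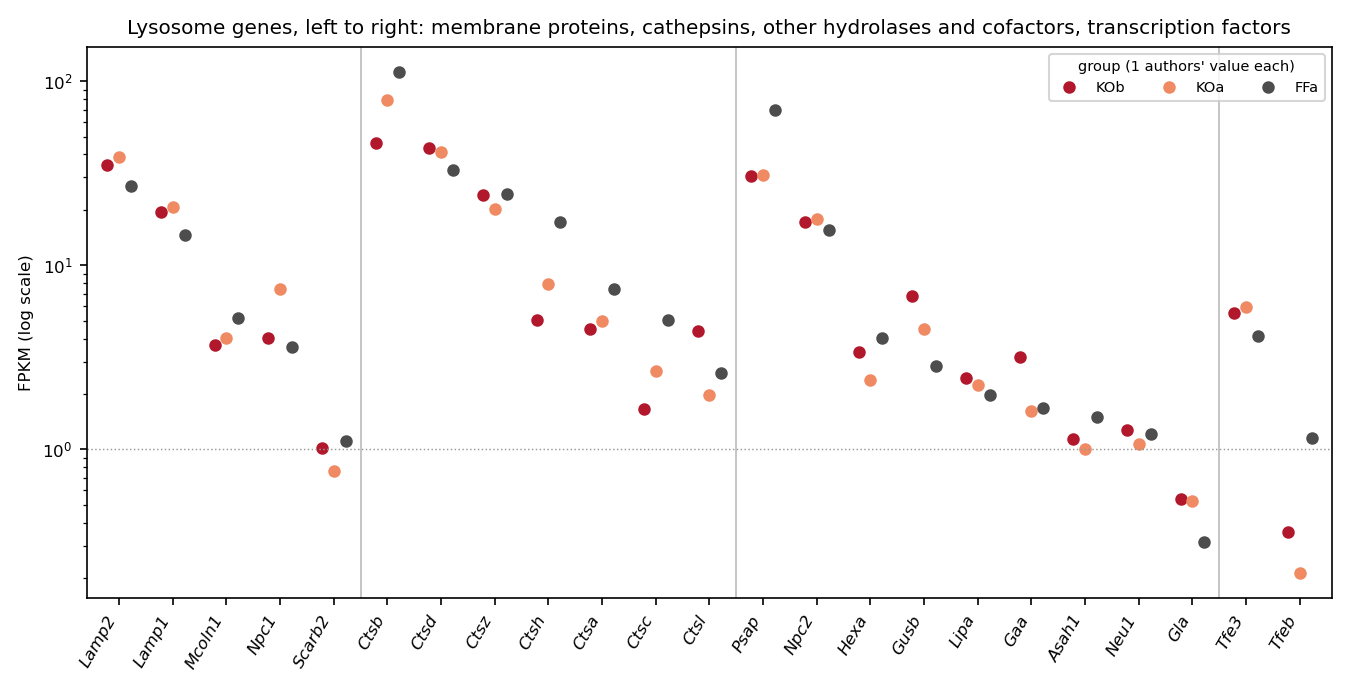
FPKM (log axis) of the 23 listed lysosome genes in KOb, KOa and FFa, 1 authors' value per gene and group, ordered within each block by the level in FFa; the dotted line marks 1 FPKM. Ctsa, Ctsb, Ctsc, Ctsh, Mcoln1 and Psap are lowest in KOb and highest in FFa, and Psap is nearly level in the mutant groups (30.4 in KOb and 30.9 in KOa, against 69.8 in FFa).

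The cathepsins, the proteases of the lysosome, held 129.0 FPKM summed over 7 genes in KOb, 157.4 in KOa and 201.5 in FFa. In KOa against FFa, 4 of 7 were called lower and none higher, and in KOb against FFa 4 were called lower and 1 higher. Among all tested genes 14.1% were called lower and 7.99% higher in the first of these comparisons, and 15.2% lower and 12.8% higher in the second. Under a scaling of all groups to the same summed FPKM, which a few genes led by Beta-s dominate, Ctsa in KOb against FFa and Ctsb, Ctsc and Ctsh in KOb against KOa changed sign, and no call in KOa against FFa did. Ctsb, a cysteine protease (chr14:63122462-63177793, sharing its deposited locus with Fdft1), stood at 45.9 FPKM in KOb, 78.7 in KOa and 112 in FFa. Its log2 ratio in the authors' deposited table was -0.51 ± 0.30 in KOa against FFa (q = 0.0306, 95% interval -1.10 to 0.08), -1.29 ± 0.30 in KOb against FFa (q = 0.000619) and -0.78 ± 0.30 in KOb against KOa (q = 0.000619).

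Ctsh, an aminopeptidase (chr9:90054267-90076095), stood at 5.07 FPKM in KOb, 7.95 in KOa and 17.2 in FFa. Its log2 ratios in the authors' deposited table were -1.11 ± 0.30 for KOa over FFa, -1.76 ± 0.31 for KOb over FFa (both q = 0.000619) and -0.65 ± 0.33 in KOb against KOa (q = 0.0127). Ctsc, which activates the serine proteases of granules in myeloid cells (chr7:88278093-88310875), stood at 1.66 FPKM in KOb, 2.66 in KOa and 5.04 in FFa. In the authors' deposited table it fell by 0.92 ± 0.35 in KOa against FFa and by 1.60 ± 0.38 in KOb against FFa (both q = 0.000619), and by 0.68 ± 0.41 in KOb against KOa (q = 0.0409), the last with a 95% interval from -1.48 to 0.13. For these 3 cathepsins the order of the groups was the same, with KOb lowest and FFa highest, and each was called in all 3 comparisons. Ctsa, Psap, Mcoln1, Atp6v0d1, Atp6v1d and Atp6v1f had the same order of levels, but none of them was called in KOb against KOa. Summed FPKM of 12 macrophage and monocyte markers had that order too, at 69.3 in KOb, 110.9 in KOa and 151.1 in FFa, as had the sums of the erythroid, granulocyte, B cell, dendritic cell and osteoclast markers. The osteoclast sum was nearly all Acp5 (34.2 of 34.4 FPKM in KOb and 94.1 of 94.4 in FFa), which is also counted below among the other lysosomal enzymes. The part of any of these cell types in the fall of Ctsb, Ctsc and Ctsh was not tested.

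Ctsa, a carboxypeptidase that shields other lysosomal enzymes from digestion, had 4.50 FPKM in KOb, 4.99 in KOa and 7.43 in FFa, and shares its deposited locus with Neurl2 and Pltp. It was lower in KOa (-0.58 ± 0.32, q = 0.0215) and in KOb (-0.72 ± 0.32, q = 0.00161) than in FFa in the authors' deposited table. The first had a 95% interval from -1.21 to 0.06. Ctsl (chr13:64363214-64370306), another cysteine protease, went the other way, with 4.38 FPKM in KOb, 1.98 in KOa and 2.62 in FFa. KOb was high, at 0.74 ± 0.37 against FFa (q = 0.0124) and 1.14 ± 0.40 against KOa (q = 0.000619) in the authors' deposited table. Ctsd, the main aspartic protease of the lysosome, had 43.5 FPKM in KOb, 41.0 in KOa and 32.9 in FFa, and Ctsz had 24.0, 20.1 and 24.3 in the same order, in a deposited locus shared with Th1l. Neither was called in any comparison.

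Among the other hydrolases and luminal cofactors, Psap was lower than in FFa in both mutant groups. Psap encodes prosaposin, the precursor of the cofactors that lift sphingolipids to their hydrolases (chr10:60277628-60302600), and it stood at 30.4 FPKM in KOb, 30.9 in KOa and 69.8 in FFa. The mutant groups were nearly level with each other, at -0.03 ± 0.30 in KOb against KOa. Psap was, in the authors' deposited table, lower in KOa (-1.17 ± 0.30) and in KOb (-1.20 ± 0.29) than in FFa, both with q = 0.000619.

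Gusb was higher than in FFa in both mutant groups, and Gaa in KOb. Gusb, the beta-glucuronidase (chr5:129989021-130002828), stood at 6.82 FPKM in KOb, 4.49 in KOa and 2.82 in FFa. Its log2 ratio in the authors' deposited table was 0.67 ± 0.35 in KOa against FFa (q = 0.0144), 1.27 ± 0.34 in KOb against FFa (q = 0.000619) and 0.60 ± 0.32 in KOb against KOa (q = 0.0186), and the first and the last had 95% intervals that reach -0.02 and -0.03. Gaa, which breaks down glycogen (chr11:119267967-119285698), stood at 3.16 FPKM in KOb, 1.62 in KOa and 1.68 in FFa. KOb was high, at 0.91 ± 0.38 against FFa and 0.97 ± 0.38 against KOa (both q = 0.00115) in the authors' deposited table. Hexa, an enzyme of ganglioside breakdown (chr9:59539667-59565105), had 3.36 FPKM in KOb, 2.39 in KOa and 4.04 in FFa, and was called lower in KOa than in FFa (-0.76 ± 0.39, q = 0.0159) in the authors' deposited table.

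The remaining 5 were not called in any comparison. Npc2, the soluble carrier that hands cholesterol to Npc1, had 17.1 FPKM in KOb, 17.9 in KOa and 15.5 in FFa. Lipa, the acid lipase, had 2.44 FPKM in KOb, 2.24 in KOa and 1.97 in FFa. Neu1, a sialidase, had 1.27, 1.07 and 1.21 in the same order, Asah1, the acid ceramidase, 1.14, 1.01 and 1.49, and Gla, an alpha-galactosidase, 0.537, 0.524 and 0.314.

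The transcription factors moved in opposite directions in KOa. Tfeb (chr17:47737037-47792416) stood at 0.354 FPKM in KOb, 0.213 in KOa and 1.15 in FFa, and was lower in KOa (-2.44 ± 0.94, q = 0.00205) and in KOb (-1.70 ± 0.79, q = 0.00807) than in FFa in the authors' deposited table. Its level was below 1 FPKM in both mutant groups. Tfe3 (chrX:7762661-7775202), the more abundant factor in every group, stood at 5.50 FPKM in KOb, 5.97 in KOa and 4.12 in FFa, and was called higher in KOa than in FFa (0.54 ± 0.34, q = 0.0366, 95% interval -0.12 to 1.19) in the authors' deposited table. In KOb against FFa Tfe3 was not called (0.42 ± 0.34).

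Lists of further lysosome genes were counted by the same rule, to be read against the share of all tested genes called, which was 22.1% for KOa over FFa, 28.0% for KOb over FFa and 16.2% for KOb over KOa. Of 35 other lysosomal enzymes and cofactors tested, 2 were called higher and 8 lower in KOa against FFa, 5 higher and 11 lower in KOb against FFa, and 4 higher and 2 lower in KOb against KOa. Called were thus 28.6%, 45.7% and 17.1% of this list, with median log2 ratios of -0.13, -0.03 and 0.02. Lgmn, the asparaginyl endopeptidase that matures cathepsins, had 16.1 FPKM in KOb, 21.9 in KOa and 5.76 in FFa, and rose in KOa (1.93 ± 0.30) and KOb (1.49 ± 0.30) against FFa, both with q = 0.000619 in the authors' deposited table. Ctss, a cathepsin of antigen-presenting cells, had 4.68 FPKM in KOb and 21.7 in FFa (-2.21 ± 0.32, q = 0.000619 in the authors' deposited table), and Acp5, the tartrate-resistant acid phosphatase of macrophages and osteoclasts, had 34.2 FPKM in KOb and 94.1 in FFa (-1.46 ± 0.51, q = 0.000619). Scpep1 and Galns were among those called lower in KOa, at -1.51 ± 0.58 and -1.22 ± 0.46.

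Of 25 other lysosomal membrane proteins tested, 1 was called higher and 4 lower in KOa against FFa. In KOb, 4 were called higher and 6 lower of 24 against FFa, and 1 higher and 2 lower of 25 against KOa. The shares called were 20%, 41.7% and 12%, and the medians were -0.43, -0.17 and 0.12. Cd68, a macrophage lysosomal glycoprotein, had 4.57 FPKM in KOb, 6.49 in KOa and 12.8 in FFa, and fell in KOa (-0.97 ± 0.32) and KOb (-1.48 ± 0.34) against FFa in the authors' deposited table (both q = 0.000619). Abcb9, a peptide transporter, fell in both as well (-2.07 ± 0.45 in KOa and -2.51 ± 0.49 in KOb, both q = 0.000619), while Cd164, a sialomucin, rose (1.00 ± 0.29 in KOa and 1.08 ± 0.29 in KOb, both q = 0.000619).

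Of 11 vacuolar ATPase genes outside the symbol rule and assembly factors, 1 was called higher and 5 lower in KOa against FFa, 3 higher and 3 lower in KOb against FFa, and 2 higher and 1 lower in KOb against KOa. The shares called were 54.5%, 54.5% and 27.3%, and the medians were -0.16, -0.12 and 0.22. Tcirg1 had 1.87 FPKM in KOb, 1.50 in KOa and 3.62 in FFa, and fell in KOa (-1.27 ± 0.43) and KOb (-0.95 ± 0.41) against FFa in the authors' deposited table (both q = 0.000619). The accessory subunits of the pump diverged in KOa, with Atp6ap1 lower (-0.63 ± 0.27, q = 0.00289) and Atp6ap2 higher (0.55 ± 0.29, q = 0.0159) than in FFa in the authors' deposited table. Ccdc115, an assembly factor, had 8.14 FPKM in KOb and 3.57 in FFa (1.19 ± 0.34, q = 0.000619 in the authors' deposited table).

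Of 19 genes that sort enzymes to lysosomes, 1 was called higher and 2 lower in KOa against FFa, 4 higher and 0 lower in KOb against FFa, and 3 higher and 0 lower in KOb against KOa. The shares called were 15.8%, 21.1% and 15.8%, none above the background, and the medians were -0.01, 0.05 and 0.20. M6pr, the cation-dependent mannose phosphate receptor, had 29.8 FPKM in KOb, 20.8 in KOa and 18.6 in FFa (0.68 ± 0.27 in KOb against FFa, q = 0.00115 in the authors' deposited table), and the adaptor genes Ap1s1 (0.98 ± 0.29) and Ap3b1 (0.95 ± 0.31) were higher in KOb than in FFa too (both q = 0.000619). Of 17 genes for mTORC1 on the lysosome and the control of TFEB, 2 were called higher and 3 lower in KOa and 1 higher and 2 lower in KOb, both against FFa, and of 16 tested 1 was called higher and 0 lower in KOb against KOa. The shares called were 29.4%, 17.6% and 6.25%, and the medians were 0.04, -0.01 and 0.07. Rragd, a Rag GTPase that holds mTORC1 at the lysosome, had 0.0911 FPKM in KOb, 0.221 in KOa and 1.64 in FFa, and fell in KOa (-2.89 ± 0.61) and KOb (-4.17 ± 0.87) against FFa in the authors' deposited table (both q = 0.000619). Rptor was called higher in KOa (0.80 ± 0.33, q = 0.000619) and KOb (0.58 ± 0.33, q = 0.0151) against FFa in the authors' deposited table. For Rptor in KOb the 95% interval ran from -0.08 to 1.23. Of 19 genes for fusion with late endosomes and lysosome movement, 0 were called higher and 1 lower in KOa against FFa, 1 higher and 2 lower in KOb against FFa, and 3 higher and 0 lower in KOb against KOa, which is 5.26%, 15.8% and 15.8% of the list, none above the background, with medians of -0.17, 0.12 and 0.22. Stx7, a fusion syntaxin, fell in KOa (-1.17 ± 0.36) and KOb (-1.03 ± 0.35) against FFa in the authors' deposited table (both q = 0.000619). Tgfbrap1 rose in KOb against FFa (1.22 ± 0.49, q = 0.00248) in the authors' deposited table. The genes called higher in KOb against KOa were Tgfbrap1 (0.91 ± 0.46), Vps33a (0.74 ± 0.35) and Arl8b (0.73 ± 0.29).

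**Figure D4:**
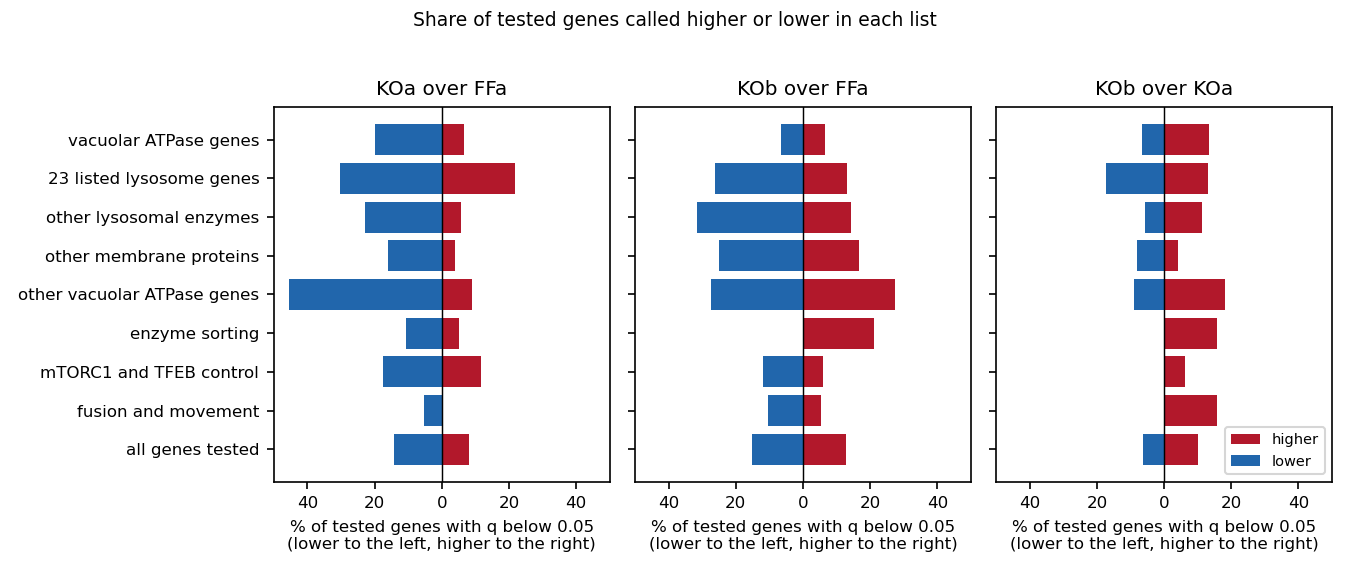
Percent of tested genes called higher (right of 0) or lower (left of 0) in each list and among all genes tested, in KOa over FFa, KOb over FFa and KOb over KOa. Among all genes tested, 14.1% were called lower and 7.99% higher in KOa over FFa, 15.2% lower and 12.8% higher in KOb over FFa, and 6.19% lower and 10% higher in KOb over KOa, and the bars of short lists rest on few genes (11 for the other vacuolar ATPase genes).

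Markers of other marrow cells moved with the groups, and their part in the results above was not tested. All 12 macrophage and monocyte markers were detected in every group. Of those tested, 6 of 11 were called lower in KOa and 11 of 11 in KOb, both against FFa, and 5 of 10 in KOb against KOa, with none called higher. C1qa stood at 5.52 FPKM in KOb, 8.35 in KOa and 17.2 in FFa, and Csf1r at 1.06, 1.81 and 3.86 in the same order. Granulocyte markers, 12 genes, summed to 13434 FPKM in KOb, 16589 in KOa and 48878 in FFa, and 5 were called lower and 1 higher in KOa and 7 lower and 1 higher in KOb against FFa. Abundant genes weigh most in that sum. The median log2 ratio of the list was -0.63 in KOa and -0.84 in KOb against FFa, with 6 and 4 of the 12 genes not called. All 10 B cell markers were called lower in KOa and in KOb against FFa, with sums of 13.1 FPKM in KOb, 14.7 in KOa and 230.5 in FFa.

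Dendritic cell markers summed to 2.52 FPKM in KOb, 3.08 in KOa and 11.4 in FFa over 6 genes, and mast cell and basophil markers to 22.0, 18.3 and 31.5 over 6 genes. Osteoclast markers, 5 genes of which Acp5 alone was tested, summed to 34.4 FPKM in KOb, 47.9 in KOa and 94.4 in FFa. Megakaryocyte markers were higher in the mutant groups, at 55.9 FPKM in KOb, 69.2 in KOa and 38.0 in FFa over 7 genes, with 3 called higher and 1 lower in both comparisons with FFa. Erythroid markers summed to 2969 FPKM in KOb, 4596 in KOa and 5630 in FFa, and 5 of 10 were called lower in KOb, 2 of 10 in KOa, both against FFa, and 4 of 10 in KOb against KOa. The count in KOa is near the 14.1% of all tested genes called lower there. The vacuolar ATPase sums differed less between groups than these marker sums did, at 409.4 FPKM in KOb, 433.6 in KOa and 407.4 in FFa. In KOa their V0 part stood at 87.2% of FFa and their V1 part at 120.4%, so opposite moves partly cancel in that total. The 23 listed lysosome genes summed to 264.6 FPKM in KOb, 297.6 in KOa and 357.0 in FFa.

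**Figure D5:**
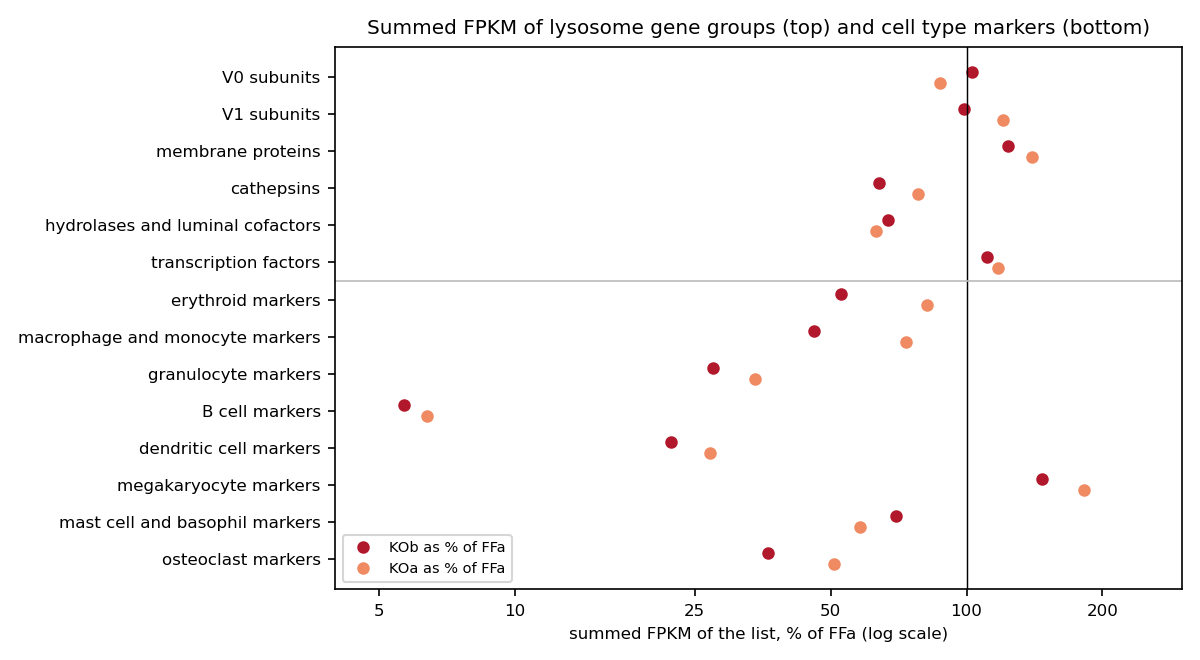
Summed FPKM of each group of lysosome genes (above the line) and of each marker list (below it) in KOb and KOa, as percent of the sum in FFa on a log axis. Cathepsins stand at 64.0% of FFa in KOb and 78.1% in KOa, macrophage and monocyte markers at 45.8% and 73.4%, and V0 subunits at 102.9% and 87.2%.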

How the data were processed

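Libraries were made from total RNA with RNeasy Mini columns with DNase treatment and the NuGEN Encore Complete kit, per the labels' protocols. The submitters' processing notes name Cuffdiff 2.1.1, TopHat2 2.0.8b, Bowtie2 2.1.0 and the build mm10; for the annotation, filters, scaling and strand use, nothing is stated in the sources used here. A table was deposited by the authors with, for 23285 genes in 3 comparisons, an FPKM per group (the 3 libraries pooled), a log2 ratio, a test score, a p-value and a q-value. Recomputed here, q is the Benjamini-Hochberg adjustment over all 31813 tested results together, and the smallest p is 5e-05.

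The implied SE is the absolute log2 ratio over the absolute score, and 95% intervals use it as a normal error. No count was available, so depth, SD, leave-one-out fits and a limma fit per library could not be had. Deposited starts count from 0 and were raised by 1. Gene medians used genes with at least 1 FPKM in either group. The recomputed adjustment was tested on simulated data.

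The genes, the lists and the rules were chosen with earlier results of these data known. All 46 genes were accounted for; of each further list at most 4 called genes of largest log2 ratio per comparison were named, and 1 gene that this rule would name is not reported here. C1qa and Csf1r were named after their values were seen. Analyses used Python 3.11.15, pandas 2.3.3, numpy 2.4.6, scipy 1.17.1 and matplotlib 3.10.9. Alternatives were a q below 0.01, adjustment within each comparison, the score read as a standard normal, an FPKM minimum of 5, a pseudocount of 1 FPKM and other scalings.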

Additional observations from a re-analysis of the deposited data

Results flagged for a closer look

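For 10 genes the mutant groups themselves differed, by the direct test of KOb against KOa in the authors' deposited table, where q is Benjamini-Hochberg adjusted over all genes. Lower in KOb were Atp6v1e1, with a log2 ratio of -0.58 (96.2 FPKM in KOb, 144 in KOa), Ctsb, at -0.78 (45.9 and 78.7 FPKM), Ctsc, at -0.68 (1.66 and 2.66 FPKM), Ctsh, at -0.65 (5.07 and 7.95 FPKM), and Npc1, at -0.89 (4.03 and 7.44 FPKM). All 5 change sign when the groups are scaled to the same summed FPKM. Higher in KOb were Atp6v0c, at 2.74 (10.1 FPKM in KOb, 1.52 in KOa), Atp6v1a, at 1.07 (1.71 and 0.816 FPKM), Ctsl, at 1.14 (4.38 and 1.98 FPKM), Gaa, at 0.97 (3.16 and 1.62 FPKM), and Gusb, at 0.60 (6.82 and 4.49 FPKM). Sort gate and degree of deletion differ together between KOb and KOa and cannot be told apart. Read as a standard normal score, the statistic kept Atp6v0c alone among these 10 (adjusted p = 5.03e-05). The summed macrophage and monocyte markers were 69.3 FPKM in KOb and 110.9 in KOa, or 62.5% of KOa. The erythroid markers in KOb stood at 64.6% of KOa, osteoclast (nearly all Acp5, itself not called here) at 71.7%, megakaryocyte at 80.7% and granulocyte at 81.0%. Dendritic cell markers stood at 81.8%, B cell markers at 88.8%, and mast cell and basophil markers at 120.5%. The part of any of these cells in the differences of the cathepsins was not tested.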

How the results depend on the processing

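Adjusting p within each comparison kept 36 of the 37 calls; Ctsc in KOb against KOa was lost (adjusted p = 0.0567). A q below 0.01 kept 23: in KOa against FFa 2 higher in place of 6 and 6 lower in place of 10, and in KOb against KOa 2 lower in place of 5. Reading the statistic as a standard normal kept 9: in KOa against FFa 0 higher and 3 lower, in KOb against FFa 1 higher and 4 lower, and in KOb against KOa 1 higher and 0 lower. With at least 5 FPKM in the higher group, 1 gene was called higher in KOb against FFa and 2 were in KOb against KOa. Scaling to the same summed FPKM, chosen after seeing the data, moved the median log2 ratio of KOb over FFa to 1.01 and that of KOb over KOa to 1.03, while that of KOa over FFa was -0.18. It turned the sign of 2 of 11 calls in KOb against FFa (Atp6v0d1 and Ctsa), and of 5 of 10 in KOb against KOa (Atp6v1e1, Ctsb, Ctsc, Ctsh and Npc1). Without the 14 genes that rank among the top 10 in any group, summed FPKM was 221983 in KOb, 237796 in KOa and 286744 in FFa. Centring on the median of all genes or on the upper quartile turned the sign of 0 calls.

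No paired analysis was possible because the table gives 1 pooled value per group and none per library, so fits with a replicate block and fits without a library were not run. Depth is unknown, so what it limits cannot be stated.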
